A study of Homo sapiens with 11 samples.

Results

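The hypoxia response and glycolysis genes described here are 42 genes listed by name, which cover the oxygen-sensing HIF system, genes that it is known to induce and the enzymes that turn glucose into lactate. They were measured in MDA-MB-231, a human breast cancer line of the triple-negative type, on 11 Illumina bead arrays. A gene was represented by its probe with the highest mean, and 41 of the 42 had a probe above the noise of the arrays, out of 14019 named genes and 22128 features tested. CA9 was not analysed here. Glucose transporters were left out of the list.

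MASTL codes for Greatwall, a kinase that holds the phosphatase PP2A-B55 in check so that cells can enter mitosis. Cells were transiently transfected by lipid reagent with MASTL siRNA for 24 h (2 arrays, replicates 1 and 3), with control siRNA for 24 h (3 arrays, replicates 1, 2 and 3), with MASTL siRNA for 48 h (3 arrays, replicates 1, 3 and 4) or with control siRNA for 48 h (3 arrays, replicates 1, 3 and 4). All groups received a transfection, and the control was a commercial non-targeting siRNA. MASTL was targeted by 1 siRNA, so what belongs to loss of MASTL and what belongs to that siRNA cannot be told apart. Its stated target sequence, shown because every siRNA comparison rests on it, is:

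MASTL siRNA target: acgccttattctagcaaatta

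In cells with enough oxygen, prolyl hydroxylases of the EGLN family mark the HIF alpha subunits HIF1A and EPAS1 for destruction by the VHL ubiquitin ligase. When oxygen is short, the alpha subunits last, pair with ARNT and bind DNA at the hypoxia response element, switching on genes for glycolysis, blood vessel growth, acid export, matrix modification and mitophagy. Much of that control acts on HIF protein, which RNA arrays do not measure, and breast cancer cells often run glycolysis at a high rate even with oxygen present.

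The promoters of the 3 members that passed a test, and of ALDOC, the member with the largest change among those that did not at 48 h, are given from RefSeq on the GRCh38.p14 build, each as 300 bases around the gene's start, 5′ to 3′ on the gene's own strand. Capitals mark ACGTG and GCGTG on either strand, the core letters of the hypoxia response element. CACGTG reads as ACGTG on both strands and counts as a match on each, and in HIGD1A the run CACGCACGC holds a pair of GCGTG matches that share a letter. HIGD1A lies at chr3:42804441-42804740 on the minus strand, ANKRD37 at chr4:185396591-185396890 on the plus strand, PFKM at chr12:48105623-48105922 on the plus strand and ALDOC at chr17:28576846-28577145 on the minus strand.
HIGD1A: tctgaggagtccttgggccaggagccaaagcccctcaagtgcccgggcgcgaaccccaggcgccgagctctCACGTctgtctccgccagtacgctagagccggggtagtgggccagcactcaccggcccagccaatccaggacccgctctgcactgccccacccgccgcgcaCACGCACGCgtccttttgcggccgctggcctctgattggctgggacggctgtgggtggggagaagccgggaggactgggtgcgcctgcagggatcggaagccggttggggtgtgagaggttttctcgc
ANKRD37: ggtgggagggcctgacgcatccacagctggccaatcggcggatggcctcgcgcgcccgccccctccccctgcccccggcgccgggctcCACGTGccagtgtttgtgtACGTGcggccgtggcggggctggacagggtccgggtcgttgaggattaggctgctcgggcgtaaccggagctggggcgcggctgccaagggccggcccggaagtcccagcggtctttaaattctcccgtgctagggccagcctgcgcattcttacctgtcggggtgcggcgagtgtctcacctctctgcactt
PFKM: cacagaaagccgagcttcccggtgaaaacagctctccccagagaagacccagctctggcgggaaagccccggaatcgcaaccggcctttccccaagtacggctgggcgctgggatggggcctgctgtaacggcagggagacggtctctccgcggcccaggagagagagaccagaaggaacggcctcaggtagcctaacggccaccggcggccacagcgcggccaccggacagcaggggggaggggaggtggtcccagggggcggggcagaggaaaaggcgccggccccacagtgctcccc
ALDOC: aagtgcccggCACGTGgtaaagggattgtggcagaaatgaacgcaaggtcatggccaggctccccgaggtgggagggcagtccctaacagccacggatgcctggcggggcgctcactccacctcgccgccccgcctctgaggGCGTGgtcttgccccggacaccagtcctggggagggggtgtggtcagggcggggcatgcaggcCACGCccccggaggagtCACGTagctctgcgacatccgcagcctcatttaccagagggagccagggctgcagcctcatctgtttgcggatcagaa

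HIGD1A held 3 matches, ANKRD37 held 3, ALDOC held 5 and PFKM held 0. Of the members, 39 could be matched to a promoter by symbol, and 30 of those (76.9%) held at least 1 of the motifs. ACGTG was in 18 (46.2%) and GCGTG in 20 (51.3%), against 26.0% and 48.3% of the promoters of tested named genes. Among all 27305 promoters of the same length, 13213 (48.4%) held either motif, and among the 11062 that belong to a tested named gene, 6714 (60.7%) did. A match is a run of letters, not a known binding site.

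All values are the authors' normalized values, taken as log2, and levels of different genes are not comparable on this scale. Every array had the same distribution of values, and a value above 7.409 was counted as above noise. Of the 41 members, 39 were above it on all 11 arrays, while EGLN3 and PDK1 were above it on 7 arrays each. Replicates carry numbers in the labels, with no word on separate cultures, and p-values therefore measure the spread between arrays. Markers of the line were high on every array, with VIM between 13.82 and 14.15, and CD44, CAV1, MSN and AXL present on all. Of 8 luminal and epithelial markers, ESR1, PGR and CDH1 had no probe past the noise filter, while GATA3 (7.49 to 7.65), FOXA1 (7.71 to 7.99), ERBB2 (8.79 to 9.26), EPCAM (8.98 to 9.60) and KRT19 (11.15 to 12.73) did. No probe passed for the leukocyte genes PTPRC and CD3E or the endothelial genes VWF and CDH5. The leukocyte gene CD14 lay between 7.90 and 8.93 and the endothelial gene PECAM1 between 7.46 and 8.02. RNA came from whole cultures, in which fewer cells of a kind and less RNA per cell cannot be told apart.

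MASTL itself read 7.61 and 7.69 in MASTL siRNA arrays at 24 h, against 8.74, 8.73 and 8.64 in control arrays. At 48 h it read 7.54, 7.53 and 7.67 under MASTL siRNA, against 8.41, 8.42 and 8.72 under control siRNA. The target was lower in every silenced array at both times (log2 changes of -1.05 and -0.93, limma adjusted p = 0.00137 and 0.00117). After silencing, MASTL was near the noise limit, where folds understate a change.

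Few of these genes passed the test under MASTL siRNA. HIGD1A fell at both times, by more than 2 in linear fold, while ANKRD37 fell and PFKM rose at 48 h and on average over the times. The other 38 members did not pass the test in any siRNA comparison without pairing of arrays. At 24 h limma called 1 of 41 members at a Benjamini-Hochberg adjusted p under 0.05 over all features, against 0.895% of all features. At 48 h it called 3 of 41, against 2.34% of features. On the average of both times it called the same 3, against 4.67% of features. At an unadjusted p under 0.05 there were 6 members at 24 h (14.6%, against 9.09% of features) and 6 at 48 h (14.6%, against 14.0% of features).

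HIGD1A, a small mitochondrial inner membrane protein that HIF induces, had the largest siRNA effect of the members. At 24 h it read 9.68 and 9.67 under MASTL siRNA, against 11.10, 10.87 and 10.81 under control siRNA. At 48 h it read 9.81, 10.02 and 9.98 under MASTL siRNA, against 10.98, 11.004 and 10.97 under control siRNA. Every silenced array lay below every control array, by close to a full log2 unit or more. The means were 9.68 ± 0.0091 (SD, n = 2) against 10.92 ± 0.15 (n = 3) at 24 h, which is 2.38-fold lower (log2 -1.25, SE 0.085, limma adjusted p = 0.000582). At 48 h they were 9.94 ± 0.11 against 10.98 ± 0.017 (SD, n = 3 each), which is 2.07-fold lower (log2 -1.05, SE 0.076, limma adjusted p = 0.000472). Its other probes read -0.83 and -0.73 at 24 h and -0.74 and -0.67 at 48 h, the same direction with smaller sizes. The call held without any one array, with log2 changes between -1.31 and -1.16 at 24 h and between -1.09 and -0.98 at 48 h.

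HIGD2A, its relative that takes part in assembling respiratory chain supercomplexes, was not called without pairing of arrays. Its 24 h means were equal at 10.72 under MASTL siRNA and 10.72 under control siRNA. At 48 h its mean was 10.97 under MASTL siRNA against 10.75 under control siRNA, and the groups did not overlap (log2 change 0.23, limma adjusted p = 0.34).

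ANKRD37, an ankyrin repeat protein known as a HIF target, was the other member that fell. At 48 h it read 8.35, 8.41 and 8.23 under MASTL siRNA, against 8.95, 8.98 and 8.88 under control siRNA. These groups did not overlap, and the log2 change was -0.61 (SE 0.12, limma adjusted p = 0.042). At 24 h it read 8.16 and 7.96 under MASTL siRNA, against 9.0004, 8.69 and 8.45 under control siRNA. The groups were again apart, yet the 24 h change of -0.66 missed the threshold (limma adjusted p = 0.086). The average over both times was -0.63 (SE 0.092, limma adjusted p = 0.00625), and it stayed called without any one array. The 48 h call was lost without any one of the 48 h arrays, and without 24 h control replicate 2, 24 h MASTL siRNA replicate 1 or 24 h MASTL siRNA replicate 3, at log2 changes between -0.65 and -0.55 over all leave-outs.

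PFKM, the muscle-type subunit of phosphofructokinase, which commits sugar to glycolysis, was the member that rose. At 48 h it read 9.20, 9.27 and 9.29 under MASTL siRNA, against 8.86, 8.93 and 8.96 under control siRNA. The groups did not overlap, and PFKM was 1.26-fold higher (log2 0.33, SE 0.065, limma adjusted p = 0.0364). At 24 h it read 9.18 and 9.40 under MASTL siRNA, against 8.96, 8.85 and 9.03 under control siRNA. The groups were apart there too, at a log2 change of 0.34 (limma adjusted p = 0.087). Averaged over the times the change was 0.34 (SE 0.049, limma adjusted p = 0.00577), called without any one array as well. The 48 h call was lost without any one of the 48 h arrays or without 24 h control replicate 1, at log2 changes between 0.30 and 0.36. The other phosphofructokinase subunits read 0.09 for PFKL and -0.13 for PFKP at 48 h, neither called.

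**Figure D1:**
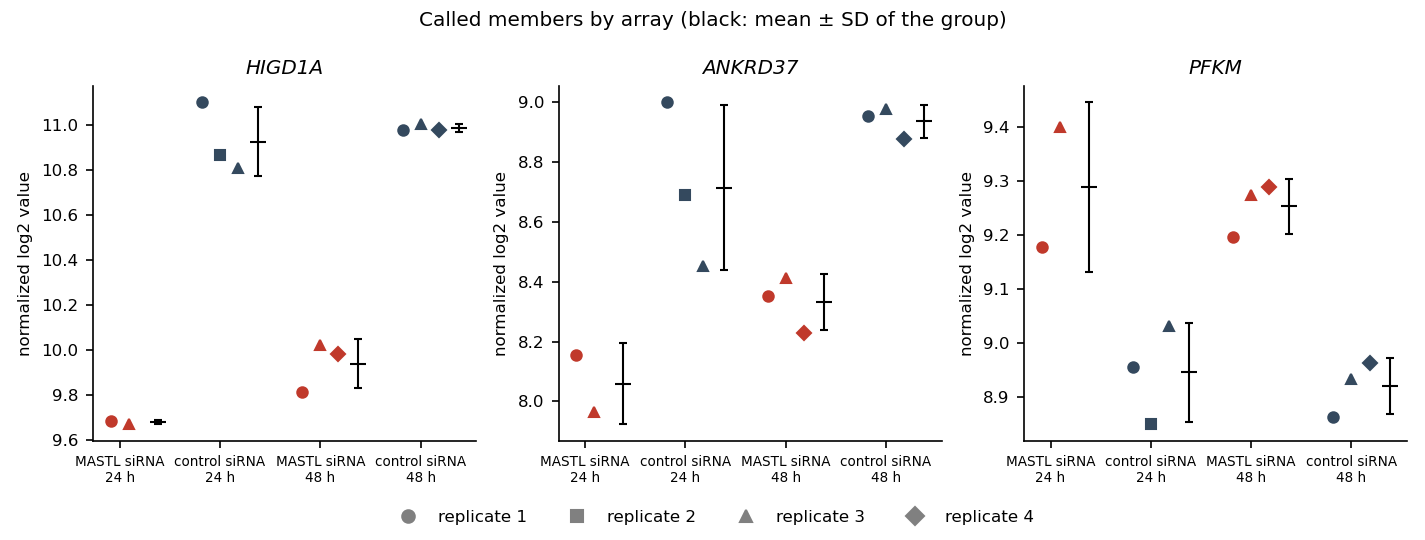
Log2 level of HIGD1A, ANKRD37 and PFKM on each of the 11 arrays, MASTL siRNA left of control siRNA at each time, with a point per array and a bar at the group mean. HIGD1A and ANKRD37 lie lower and PFKM higher on all MASTL siRNA arrays than on any control array of the same time.

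The HIF alpha subunits and their hydroxylases were not called in any siRNA comparison, paired or not. HIF1A averaged 9.08 ± 0.19 under MASTL siRNA and 9.27 ± 0.049 under control siRNA at 48 h (SD, n = 3 each), a log2 change of -0.19 (limma adjusted p = 0.362). Its 24 h average was 9.01 ± 0.088 under MASTL siRNA (n = 2) and 9.04 ± 0.058 under control siRNA (n = 3), a log2 change of -0.03. Another HIF1A probe of nearly the same mean read -0.28 at 24 h and -0.15 at 48 h, so the 24 h size depends on the probe. EPAS1 averaged 9.86 ± 0.18 under MASTL siRNA and 9.88 ± 0.23 under control siRNA at 48 h. EGLN1 and EGLN3 differed by -0.04 and -0.01 at 24 h and by -0.06 and -0.07 at 48 h.

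Among secreted and surface targets, none of the 4 tested was called without pairing. VEGFA, the main growth factor for blood vessels, read 9.33 and 9.09 under MASTL siRNA at 24 h, against 9.40, 9.89 and 9.46 under control siRNA. At 48 h it read 9.89, 9.57 and 9.03 under MASTL siRNA, against 10.13, 9.93 and 9.67 under control siRNA. The groups were just apart at 24 h and overlapped at 48 h (log2 changes -0.37 and -0.41, limma adjusted p = 0.781 and 0.492). Without 48 h MASTL siRNA replicate 4 the 48 h value was -0.18, and without MASTL siRNA replicate 1 it was -0.61.

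CA12, a membrane carbonic anhydrase that helps to move acid out of cells, read 9.86, 9.39 and 9.12 under MASTL siRNA at 48 h, against 10.15, 9.73 and 9.45 under control siRNA. These groups overlapped (log2 change -0.32, limma adjusted p = 0.65), with values from -0.52 to -0.14 when one array was left out, lowest without MASTL siRNA replicate 1 and nearest to 0 without control replicate 1. ADM, a vasodilating peptide, read -0.08 at 24 h and -0.16 at 48 h. ANGPTL4, a secreted regulator of lipoprotein lipase, read 0.04 and 0.30, the largest positive value of the secreted targets.

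Of the 6 intracellular targets, 5 were negative at each time and ANKRD37 was the one called without pairing of arrays. With the 48 h arrays paired by replicate number, as described further on, DDIT4, BNIP3L and NDRG1 were called lower as well. DDIT4, which restrains mTOR signalling under stress, read 11.08, 10.67 and 11.12 under MASTL siRNA at 48 h, against 11.66, 11.18 and 11.40 under control siRNA. Every silenced array lay below every control array (log2 change -0.46, limma adjusted p = 0.585, and 0.0113 with the replicate block). At 24 h DDIT4 read 10.68 and 9.84 under MASTL siRNA, against 11.22, 10.88 and 10.19 under control siRNA, and the groups overlapped. That change of -0.51 was -0.085 without MASTL siRNA replicate 3 and -0.93 without MASTL siRNA replicate 1.

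BNIP3L, a receptor for mitophagy, read 10.35, 10.02 and 9.60 under MASTL siRNA at 48 h, against 10.56, 10.45 and 9.88 under control siRNA. At 24 h it read 9.75 and 9.15 under MASTL siRNA, against 10.14, 9.94 and 9.37 under control siRNA. The groups overlapped at both times (log2 changes -0.37 at 24 h and -0.31 at 48 h, limma adjusted p = 0.844 and 0.738, and 0.0177 at 48 h with the replicate block). On leaving out one array, the 24 h value ran from -0.67 without MASTL siRNA replicate 1 to -0.068 without MASTL siRNA replicate 3. The 48 h value ran from -0.52 without control replicate 4 to -0.11 without MASTL siRNA replicate 4. Its paralog BNIP3 read -0.13 at 24 h and -0.15 at 48 h, the stress-response gene NDRG1 read -0.34 and -0.19, and the MYC antagonist MXI1 read 0.02 and 0.06.

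The chromatin and collagen-modifying enzymes were all negative and none was called without pairing. P4HA2, a catalytic subunit of the collagen prolyl hydroxylase, read 9.99, 9.79 and 9.52 under MASTL siRNA at 48 h, against 10.61, 10.47 and 9.91 under control siRNA. The groups overlapped in 1 array of each (log2 change -0.57, limma adjusted p = 0.223), and another P4HA2 probe read -0.41. The rest read between -0.14 and -0.08 at 48 h, namely the histone demethylase KDM3A, the collagen hydroxylase subunit P4HA1 and the collagen cross-linking enzyme LOX. The pyruvate dehydrogenase kinases, which turn pyruvate away from mitochondria, differed by 0.02 for PDK1 and 0.03 for PDK3 at 48 h, where another PDK3 probe read -0.15.

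Of the 9 enzymes of upper glycolysis, PFKM was the only one called without pairing. ALDOC, the aldolase isoform first known from brain, read 9.63, 9.38 and 9.26 under MASTL siRNA at 48 h, against 10.40, 10.32 and 9.71 under control siRNA. All silenced arrays were lower (log2 change -0.72, limma adjusted p = 0.441). At 24 h it read 8.65 and 8.29 under MASTL siRNA, against 8.96, 9.98 and 8.38 under control siRNA, where control replicate 2 stood well above the rest. The 24 h change of -0.64 (limma adjusted p = 0.759) was -0.20 without that array and -1.001 without control replicate 3.

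ALDOA, the main aldolase, read 12.16 and 12.08 under MASTL siRNA at 24 h, against 12.74, 12.72 and 12.23 under control siRNA. TPI1, triosephosphate isomerase, read 12.002 and 12.04 under MASTL siRNA at 24 h, against 12.49, 12.52 and 12.19 under control siRNA. In both the groups were apart at 24 h (log2 changes -0.44 and -0.38, limma adjusted p = 0.485 and 0.476), and at 48 h the changes were -0.05 and 0.01. Another TPI1 probe, above noise on all 11 arrays, had the opposite signs, 0.05 at 24 h and -0.10 at 48 h, and another ALDOA probe read -0.22 and -0.09. The hexokinases HK1 and HK2, which trap glucose in the cell, read 0.16 and 0.18 at 24 h and 0.08 and 0.13 at 48 h. GPI, phosphoglucose isomerase, read 0.11 and 0.04.

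The PFKFB enzymes set the level of an activator of phosphofructokinase, and both were negative at both times by the probes used, from -0.19 to -0.11. Another PFKFB3 probe, above noise on all 11 arrays, read 0.0005 at 24 h and 0.03 at 48 h. All 6 members of lower glycolysis were negative at 24 h and 5 of 6 at 48 h. PKM, pyruvate kinase, read 11.47, 11.32 and 11.44 under MASTL siRNA at 48 h, against 11.78, 11.56 and 11.65 under control siRNA. The groups did not overlap, and the log2 change of -0.25 was not called (limma adjusted p = 0.313). GAPDH, PGK1, ENO1 and ENO2 lay between -0.19 and -0.07 at 48 h, and PGAM1 read 0.17. PGAM1 has a near-identical retrogene, PGAM4, which read 0.16 at 48 h, and whether their probes share signal was not tested. LDHA, which reduces pyruvate to lactate, read -0.16 at 24 h and -0.09 at 48 h, and LDHB read 0.09 and 0.10. Another LDHA probe, of mean 13.48, read -0.07 and -0.28, and a dimmer one read -0.06 and 0.06, so the LDHA sizes depend on the probe.

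**Figure D2:**
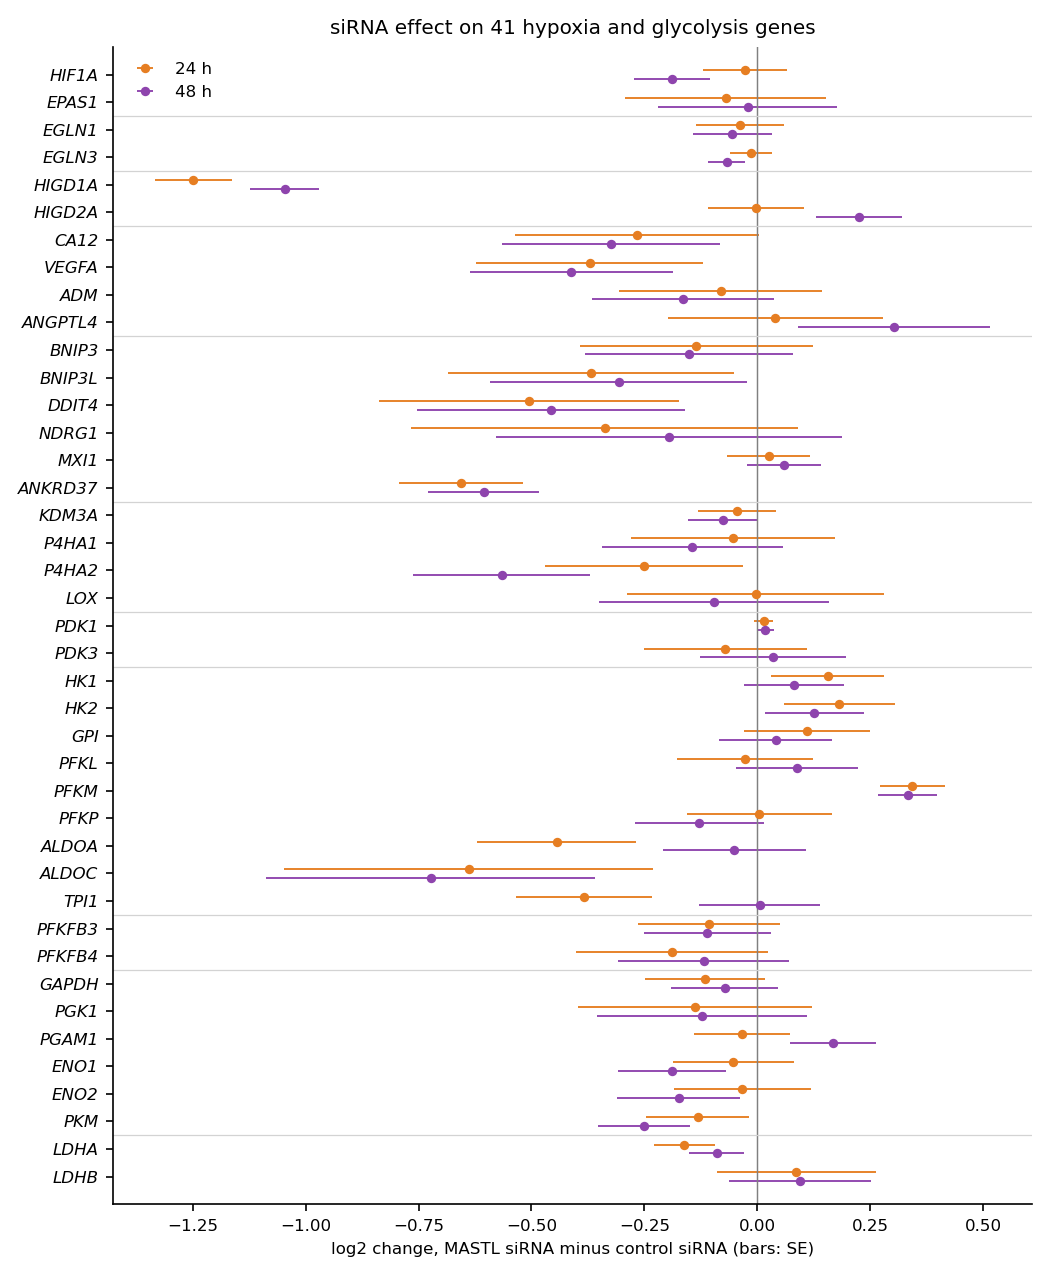
Log2 change, MASTL siRNA minus control siRNA, with its standard error for each of the 41 members at 24 h and 48 h, grouped by role. HIGD1A stands farthest below 0 at both times, and 32 of the 41 members lie below 0 at 24 h and 28 of 41 at 48 h.

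Counted without regard to size, 32 of 41 members were negative at 24 h and 28 of 41 at 48 h, against 47.4% and 48.8% of features. The median log2 change was -0.07 at 24 h and -0.10 at 48 h, while all features had medians of 0.003 and 0.001. Members whose silenced arrays all lay below their control arrays numbered 5 at each time (11.7% of features at 24 h and 8.55% at 48 h), and 2 lay wholly above at each time (13.4% and 10.2% of features). HIGD1A and ANKRD37 were in the lower set at both times and PFKM in the upper set at both. A test of the 48 h effect minus the 24 h effect by limma called 0 of 41 members, against 0.0% of features, with 0 members at an unadjusted p under 0.05 (3.02% of features). The largest differences of the probes used were those of ALDOA (0.39, SE 0.24) and TPI1 (0.39, SE 0.20). Each rests on 1 probe, since other probes of those genes gave 0.14 for ALDOA and -0.15 for TPI1.

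The 48 h arrays with the same replicate number deviated together from their group means in these genes. Replicate 1 stood above replicate 4 in both siRNA groups for 33 of 41 members at 48 h, against 32.6% of features. The median gap was 0.25 log2 units under MASTL siRNA and 0.30 under control siRNA. At 24 h, replicate 1 stood above replicate 3 in both groups for 33 of 41 members, against 28.4% of features. In control arrays at 24 h, replicate 3 lay below the group mean for 38 of 41 members, whereas 50.7% of features lay above it there. What set the replicates apart was not tested.

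NDRG1, raised by hypoxia and other stresses, is an example. It read 13.21, 12.94 and 12.18 in replicates 1, 3 and 4 under MASTL siRNA at 48 h, against 13.41, 13.12 and 12.38 under control siRNA. The groups overlapped almost wholly, with SDs of 0.53 each, and yet the differences within the pairs were -0.20, -0.18 and -0.20. NDRG1 also had the highest within-group SD of the members, at 0.52, with ALDOC at 0.50. Over members the median within-group SD was 0.18, against 0.047 over all features. Of those with a mean above 9, it was 0.21 for 34 members and 0.14 for 4385 features.

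**Figure D3:**
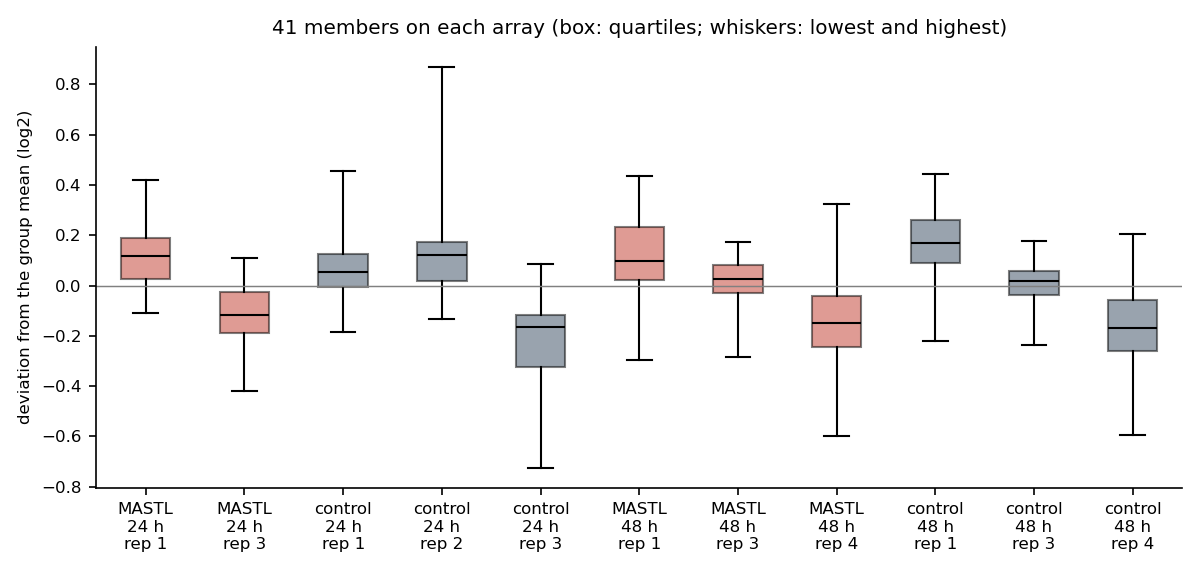
Deviation of each member from its group mean, in log2 units, on each of the 11 arrays, with the median of the 41 members marked. The median runs from -0.17 to 0.17, with replicate 1 of both 48 h groups above and replicate 4 of both below.

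Comparing the 48 h arrays as pairs of the same replicate number raised the count of called members to 15 of 41, against 12.2% of features called in the same paired fit. In that fit 11 members fell, namely ALDOC, ANKRD37, BNIP3L, CA12, DDIT4, ENO1, HIGD1A, NDRG1, P4HA2, PKM and VEGFA. The 4 that rose were ANGPTL4, HIGD2A, HK2 and PFKM. Sizes are those of the unpaired comparison, and the errors are smaller. CA12 differed by -0.29, -0.34 and -0.33 in the 3 pairs (SE 0.026, limma adjusted p = 0.00217 with the replicate block). ALDOC differed by -0.78, -0.94 and -0.45 (SE 0.095, limma adjusted p = 0.00849 with the block), and P4HA2 by -0.63, -0.68 and -0.39 (SE 0.075, limma adjusted p = 0.0085 with the block). ANGPTL4 differed by 0.23, 0.28 and 0.41 in the other direction (SE 0.039, limma adjusted p = 0.00781 with the block). Its other, dimmer probes, above noise on all 11 arrays, read 0.06 and -0.01 at 48 h, so the rise of ANGPTL4 depends on the probe.

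Every pair was negative for 21 members and positive for 7, while 21.1% and 23.4% of features were negative or positive in every pair. HIGD1A differed by -1.16, -0.98 and -0.99 in the pairs, ANKRD37 by -0.60, -0.57 and -0.65 and PFKM by 0.33, 0.34 and 0.33. That the numbers pair the arrays rests on the values and not on the labels.

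**Figure D4:**
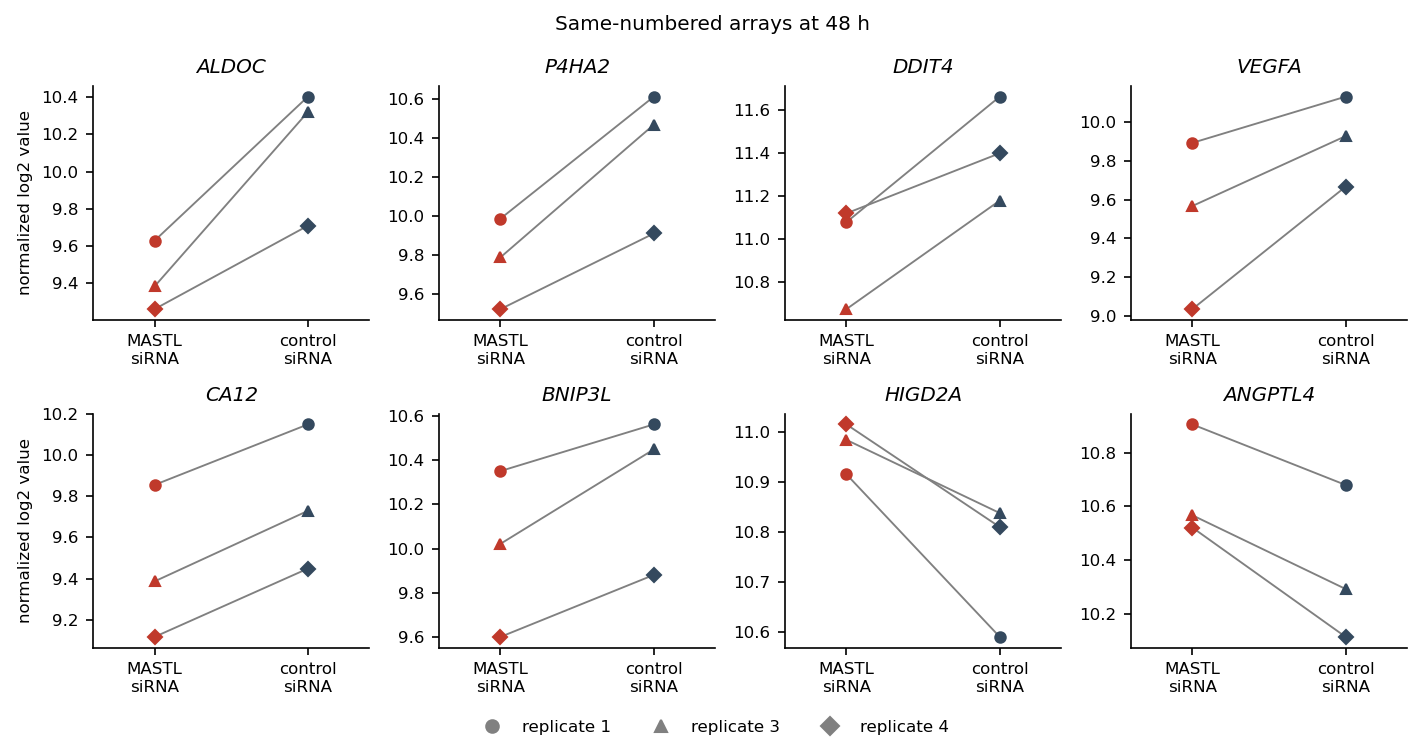
Normalized log2 values of the 48 h arrays, with MASTL siRNA and control siRNA joined by a line in each of the 3 replicate pairs. Shown are ALDOC, P4HA2, DDIT4, VEGFA, CA12, BNIP3L, HIGD2A and ANGPTL4, which are some of the members called in the paired fit. MASTL siRNA lies higher in every pair for HIGD2A and ANGPTL4 and lower in every pair for the others shown.

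Most of these genes read higher at 48 h than at 24 h under either siRNA, although no member passed the test over all features. Under MASTL siRNA, 37 of 41 members read higher at 48 h than at 24 h, with a median log2 change of 0.31, and under control siRNA 38 of 41 did, with a median of 0.24. Of all features, 47.8% read higher at 48 h under MASTL siRNA and 47.9% under control siRNA. The median over all features was -0.003 under MASTL siRNA and -0.002 under control siRNA. Under MASTL siRNA limma called 0 of 41 members, against 0.00452% of features, and 14 members had an unadjusted p under 0.05 (34.1%, against 9.57% of features). Under control siRNA it called 0 of 41, against 0.0% of features, and 15 had an unadjusted p under 0.05 (36.6%, against 9.88% of features). Time after transfection and time in culture ran together and cannot be told apart.

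ADM read 12.07, 11.68 and 11.43 at 48 h under MASTL siRNA, against 11.03 and 10.58 at 24 h. Under control siRNA it read 12.22, 11.86 and 11.60 at 48 h, against 10.98, 10.89 and 10.78 at 24 h. All 48 h arrays lay above all 24 h arrays under either siRNA (log2 changes 0.93 and 1.01, limma adjusted p = 0.276 and 0.211). ANGPTL4 read 10.91, 10.57 and 10.52 at 48 h under MASTL siRNA, against 10.02 and 9.47 at 24 h, and 10.68, 10.29 and 10.11 at 48 h under control siRNA, against 9.96, 9.77 and 9.37 at 24 h. Its groups were apart under both siRNAs as well (0.92 and 0.66, limma adjusted p = 0.294 and 0.389). Dimmer ANGPTL4 probes changed less with time, by 0.23 and 0.03 under MASTL siRNA and by 0.11 and 0.01 under control siRNA.

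With the arrays of both siRNAs pooled, 6 members had every 48 h array above every 24 h array, against 0.89% of features. They were ADM, ANGPTL4, PFKFB4, PGK1, PGAM1 and LDHA. BNIP3 and P4HA2 were apart in the same direction within each siRNA, but not in the pooled arrays. Under MASTL siRNA alone there were 20 such members (13.0% of features) and under control siRNA 13 (6.07% of features), and in neither was a member wholly lower at 48 h. PGK1, which makes ATP in lower glycolysis, changed by 0.64 under MASTL siRNA and 0.62 under control siRNA. ALDOC changed by 0.95 and 1.04 and DDIT4 by 0.70 and 0.65. HK2 and LDHB read below 0 under both siRNAs, at -0.13 and -0.07 for HK2 and at -0.07 and -0.07 for LDHB. Another HK2 probe read 0.08 and 0.06, the opposite direction.

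Of the genes called for the siRNA, HIGD1A and ANKRD37 had every 48 h array above every 24 h array under MASTL siRNA and not under control siRNA, and the difference was not called. HIGD1A changed by 0.26 under MASTL siRNA and by 0.06 under control siRNA, and ANKRD37 by 0.27 and 0.22. PFKM changed by -0.04 and -0.03.

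**Figure D5:**
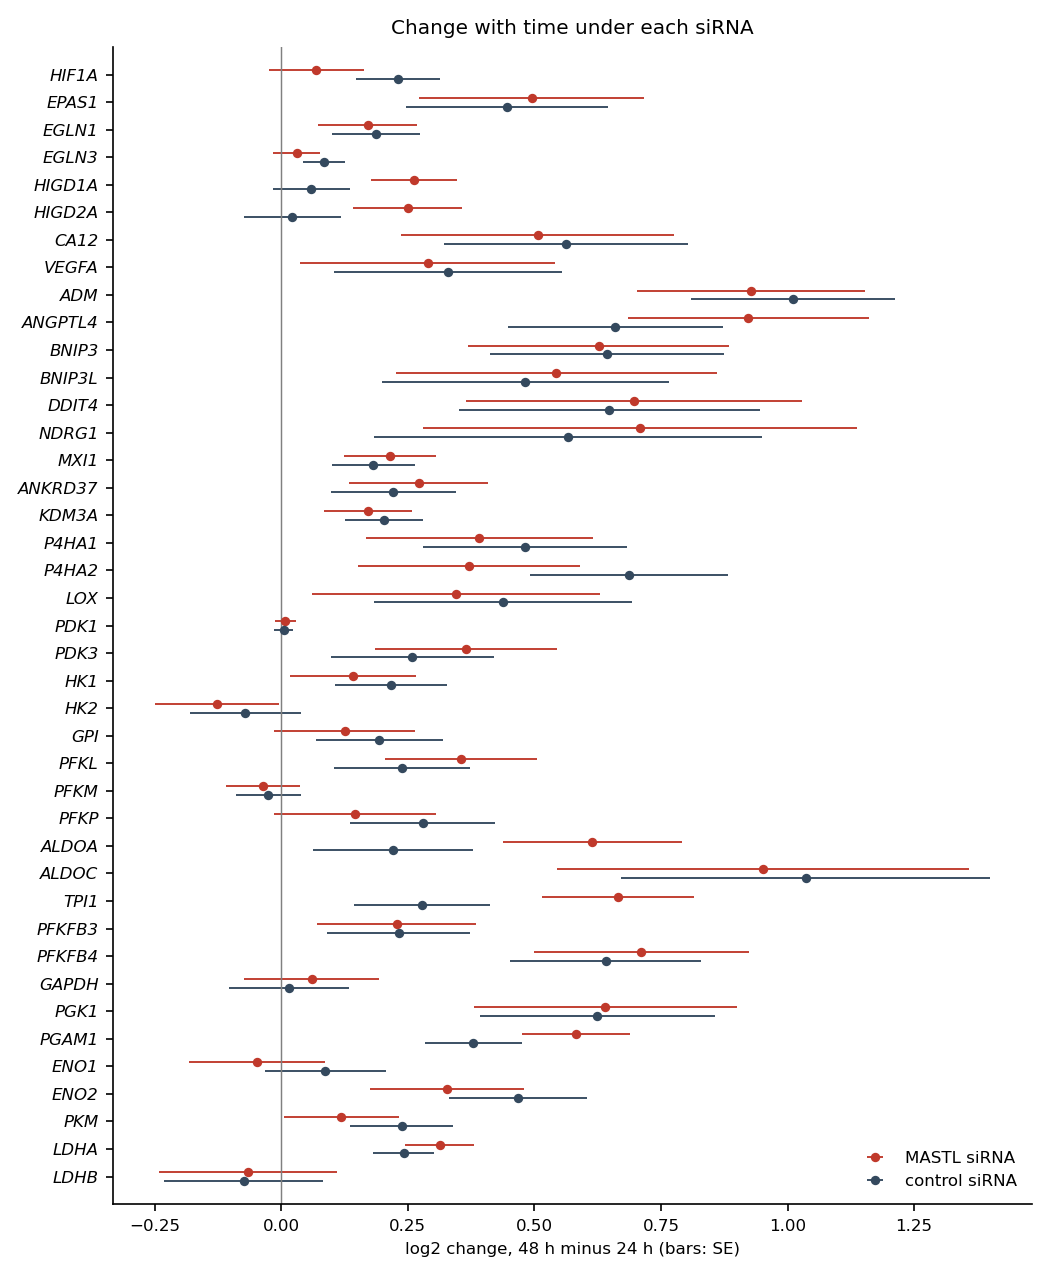
Log2 change, 48 h minus 24 h, with its standard error for each of the 41 members under MASTL siRNA and under control siRNA. Members lie almost all above 0 under both, with ALDOC and ADM near 1 and HK2 and LDHB just below 0.

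Other genes of the same system, taken from whole pathway lists, were compared in the same way. None of 16 HIF partners and oxygen-sensing regulators was called in any comparison without pairing (unadjusted p under 0.05 for 2 at 24 h and 5 at 48 h by limma), and their medians were 0.05 at 24 h and 0.03 at 48 h. ELOB, a subunit of the VHL ubiquitin ligase and the one of highest mean, averaged 12.11 ± 0.039 under MASTL siRNA and 11.88 ± 0.066 under control siRNA at 48 h (SD, n = 3 each), a log2 change of 0.23 (limma adjusted p = 0.274). With the 48 h arrays paired, 4 of the 16 passed (12.2% of features), and CITED2, CUL2, ELOB and RBX1 were all higher under MASTL siRNA. None of 26 tested other hypoxia-induced genes was called either (unadjusted p under 0.05 for 1 at 24 h and 4 at 48 h by limma), while the paired fit at 48 h called AK4 and TFRC higher and BHLHE40, ERO1A, ERRFI1, GBE1 and PLOD2 lower. The AK4 probe used read 0.14 at 48 h. Another AK4 probe, above noise on all 11 arrays, read -0.28 there, and the rest lay between -0.04 and 0.03, so the direction for AK4 depends on the probe. With time, 23 of the 26 were higher at 48 h under MASTL siRNA and 22 of 26 under control siRNA, with medians of 0.16 and 0.12. MIF, a cytokine and the one of highest mean there, changed by 0.43 under MASTL siRNA and 0.23 under control siRNA.

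Of 9 tested other glycolytic isoenzymes none was called (0 at an unadjusted p under 0.05 at either time by limma), and PGAM4 changed by 0.51 with time under MASTL siRNA and 0.28 under control siRNA. Of the 6 genes listed as other HIG1 domain proteins or as respiratory subunits and proteases switched by hypoxia, 2 were tested and neither was called without pairing (0 at an unadjusted p under 0.05 at 24 h and 1 at 48 h by limma). COX4I1, a subunit of cytochrome c oxidase, averaged 13.41 ± 0.15 under MASTL siRNA and 13.26 ± 0.10 under control siRNA at 48 h (SD, n = 3 each), and LONP1, a mitochondrial protease, was the one called in the paired fit, at 0.32 higher.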

How the data were processed

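RNA of 11 samples was amplified, biotin-labelled and hybridised, per the labels' protocols. The values are the authors' deposited normalized values, 47321 probes per array, taken as log2 from their range of 7.24 to 14.51. Lumi was used, per the submitters' processing notes, and the transform behind them, log2 or variance-stabilizing, is not given in the sources used here. The 11 signal columns of a non-normalized table were not used, because their names tie to no sample.

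The noise limit of 7.409 is the 95th percentile of the values below the most common value (7.357), mirrored. Probes above it on at least 2 arrays were kept (27296). Names came from the platform annotation (30113 probes with 1 symbol, 8 with several, 17200 with none), updated by Entrez number for 30074. The highest-mean probe stood for a gene, giving 22128 features (14019 named). For 21 members there were 30 other probes, of which 23 had the same sign at 24 h and 22 at 48 h. A mean per group was fitted to all 11 arrays (7 residual and 1.67 prior degrees of freedom) with limma 3.58.1 in R 4.3.3, two-sided, Benjamini-Hochberg over all features, threshold 0.05. Figures used matplotlib 3.10.9 in Python 3.11.15. The fit was tested on simulated data.

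Same-numbered arrays deviated together from their group means at 48 h (correlations 0.693, 0.549 and 0.773 across features, replicates 1, 3 and 4), so a fit with the replicate number as a block is given there. At 24 h (0.104 and 0.47) there were too few pairs, and across times correlations ran from -0.21 to 0.12, so no pairing was taken.

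Members and lists were chosen with earlier results of these data known. Values on every array are given for called members and the 6 uncalled members of largest change at each time. From other lists up to 3 called genes are named, or the one of highest mean. ADM, ANGPTL4, NDRG1, PKM and other genes outside that rule were named after their values were seen. Alternatives were the replicate block, each time fitted alone, trended robust moderation, array weights, other filters and probe rules, cyclic loess and leaving out each array.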

Additional observations from a re-analysis of the deposited data

How the results depend on the processing

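HIGD1A kept its direction and its call under every alternative run, at both times. The gene values compared were those of called genes and of the uncalled members of largest change at each time, not of every gene named here. None of the values compared reversed. Of them 558 kept their side of the threshold, 21 passed it only under an alternative and 45 were lost. Outside that comparison, the PDK3 and TPI1 probes used read 0.03 and 0.01 at 48 h, where other probes read -0.15 and -0.10. The 48 h directions of PDK3 and TPI1 therefore depend on the probe. At 24 h the count of members called was 1, and it was 2 with the replicate block across arrays, 3 with the replicate block within time (ANKRD37 and PFKM added), 2 with trended robust moderation, 2 with array weights and 1 to 2 on leaving out an array (2 without 24 h control replicate 3). At 48 h the count was 3, and it was 9 with the replicate block across arrays, 15 within time, 1 with no filter on dim probes, and 1 to 3 on leaving out an array (1 without any one of the 48 h arrays). On average over both times it was 3, then 9 and 14 with those blocks, and 3 to 4 on leaving out an array. Of all features, the block across arrays called 1.63% at 24 h, 8.45% at 48 h and 10.2% on average. The block within time called 2.91%, 12.2% and 13.5%. At 24 h trended robust moderation called 215 and array weights 295 of 22128 features, against 198 in the main fit. With no filter, 429 of 37254 were called at 48 h. Leave-outs called 56 to 203 features at 24 h, 250 to 570 at 48 h and 527 to 1042 on average. With the paired fit by replicate number across times, 22 members were called higher at 48 h under MASTL siRNA (7.65% of features called). Under control siRNA 29 were (11.6%), against 0 and 0 without that pairing. The labels do not say whether the numbers pair arrays across times. Deviations of same-numbered arrays correlated between -0.21 and 0.12 across times, which cannot decide it, since the group means hold different replicates. The block left the count for the difference between times at 0. In the other lists it also called RPIA at 24 h, and within time AK4, BHLHE40 and VHL at 24 h, and across times 13 of 26 other hypoxia-induced genes under MASTL siRNA and 16 under control siRNA. At 24 h the AK4 probe used read 0.12 without pairing, and other AK4 probes lay between -0.04 and 0.02. The mean-variance alternative also lost PFKM at 48 h (limma adjusted p = 0.0551), and DLST at 24 h was lost with each time fitted alone (limma adjusted p = 0.212) and with no filter (0.0503). The cause was not tested. Background correction of the non-normalized signals was not run, because their columns tie to no sample. Members near the noise, such as EGLN3 and PDK1, allow no firm reading of their change.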

Other observations

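Beyond glycolysis, lists of genes for pyruvate entry, the pentose phosphate pathway and the citric acid cycle were read from the same arrays. DLST, the succinyltransferase subunit of the oxoglutarate dehydrogenase complex, read 8.33, 8.41 and 8.497 under MASTL siRNA at 48 h, against 8.92, 8.82 and 9.0015 under control siRNA. At 24 h it read 8.26 and 8.43 under MASTL siRNA, against 8.82, 8.91 and 9.16 under control siRNA. It fell at both times, with the groups apart (log2 changes -0.61 at 24 h and -0.50 at 48 h, limma adjusted p = 0.034 and 0.0289). The average of -0.56 (limma adjusted p = 0.00276) stayed called without any one array, while the 48 h call was lost without any one of the 48 h arrays, at -0.55 to -0.45. The 24 h call was lost on leaving out 24 h control replicate 2, MASTL siRNA replicate 1 or 3 at 24 h, or replicate 1 or 3 of either 48 h group, at -0.70 to -0.52. DLST was the one called of 13 tested citric acid cycle genes at each time without pairing (0.895% of all features at 24 h and 2.34% at 48 h). The paired fit at 48 h, which called 12.2% of features, added SDHA, a succinate dehydrogenase subunit, at 0.23 higher. For SDHC, another subunit, the probe used read -0.09 at 24 h and 0.08 at 48 h. A second SDHC probe, above noise on all 11 arrays, read -0.33 and -0.53, so the reading of SDHC depends on the probe. On average over both times IDH3A, the catalytic subunit of the mitochondrial isocitrate dehydrogenase that uses NAD, also passed, at 0.26 higher (limma adjusted p = 0.0307, with 4.67% of features called). That call was lost on leaving out 24 h control replicate 2, MASTL siRNA replicate 1 or 3 at 24 h, MASTL siRNA replicate 3 or 4 at 48 h, or 48 h control replicate 1 or 3, at 0.24 to 0.30.

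RPIA, the ribose phosphate isomerase of the pentose phosphate pathway, read 9.10, 9.13 and 9.02 under MASTL siRNA at 48 h, against 8.59, 8.76 and 8.67 under control siRNA. It rose there by 0.41 (SE 0.073, limma adjusted p = 0.0238), with the groups apart, and at 24 h it read 0.41 as well (limma adjusted p = 0.0663). The 48 h call was lost without replicate 1 of either group, MASTL siRNA replicate 3 or control replicate 4, at 0.37 to 0.45. It was the one called of 6 tested genes of its list at 48 h, against 2.34% of features. None of 10 tested genes of pyruvate entry was called (unadjusted p under 0.05 for 1 at 24 h and 2 at 48 h by limma), and PDHB, of highest mean there, read -0.13 at both times. The paired fit at 48 h called MPC1 and MPC2, which form the mitochondrial pyruvate carrier, at 0.14 and 0.21 higher, against 12.2% of features. Another MPC1 probe, above noise on all 11 arrays, read -0.01 at 48 h, so the rise of MPC1 depends on the probe.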
